A study of Rattus norvegicus with 36 samples.

Results

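The genes described here make, break down and sense prostaglandins in the rat kidney. They were found by symbol in the array's probe annotation, from a list of 8 names: Ptgs1, Ptgs2, Ptges, Ptgds, Hpgd, Ptger1, Ptger3 and Ptger4. Of these 8 genes, 7 had a probe, and together they held 9 probes, with 2 each for Hpgd and Ptger3. The whole array had 9911 probes for 6394 named genes. No probe carried the symbol Ptgs2, the inducible cyclooxygenase, which was not analysed here.

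Prostaglandins are made from arachidonic acid that phospholipases free from membranes. Cyclooxygenases (Ptgs1 and Ptgs2) turn it into prostaglandin H2, and terminal synthases turn that into prostaglandin E2 (Ptges), prostaglandin D2 (Ptgds) and other products. In the kidney, prostaglandin E2 helps to keep up blood flow and to set salt and water excretion. It acts through the receptors EP1 to EP4, of which the list holds EP1, EP3 and EP4 (genes Ptger1, Ptger3 and Ptger4). It is inactivated by 15-hydroxyprostaglandin dehydrogenase (Hpgd).

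Kidney RNA came from 31 male rats aged 6 to 8 weeks, on 36 CodeLink arrays, 1-colour oligonucleotide arrays, with 2 arrays each for 5 rats. No strain is given in the sources used here. Ischemia rats had the blood supply of both kidneys stopped for 40 min, and kidneys were collected 2 h (4 rats) or 8 h (3 rats) into reperfusion. Another 3 ischemia rats also received 50 µg of alpha melanocyte stimulating hormone intravenously and were studied at 2 h. Mercuric chloride, a poison of the tubule, was given at 4 mg/kg under the skin and kidneys were taken after 2 h or 8 h (3 rats each). Cisplatin, a tumour drug that harms the tubule, was given at 20 mg/kg into the abdomen (3 rats, 2 h). Sham rats had 40 min of surgery without ischemia (3 rats, 8 h). Volume depletion rats had furosemide at 20 mg/kg at the start and at 8 h with a diet short of sodium (4 rats, 24 h). Untreated normal rats numbered 5. No sham group at 2 h is analysed here, so at 2 h effects of ischemia and of its surgery cannot be told apart. The question of the series, by its title, is how early ischemic and toxic kidney injury differ.

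The promoters of the 4 genes that were higher at 8 h of ischemia are shown because each had a probe that passed as higher there. In that comparison 20.8% of all probes were higher. Over the treated rats the changes of these genes, each by its brighter probe, correlated from 0.15 (Ptges and Ptger3) to 0.67 (Ptges and Hpgd). The genes were picked as higher in ischemia at 8 h, and those rats are among the treated rats. Positive values are thus partly built in, and show no link between the genes. A shared control was not tested. Each window runs from 250 bases before to 50 after a RefSeq start on GRCr8, read 5′ to 3′ in the gene's direction, and capitals mark matches to the motifs searched. On GRCr8, Ptger3 and Ptger4 lie on chromosome 2, Ptgs1, Ptges and Ptgds on 3, Hpgd on 16 and Ptger1 on 19. The windows lie at chr3:34586938-34587237 (minus strand, Ptges), chr16:39034782-39035081 (minus strand, Hpgd), chr2:249264832-249265131 (plus strand, Ptger3) and chr2:56073473-56073772 (minus strand, Ptger4).
Ptges: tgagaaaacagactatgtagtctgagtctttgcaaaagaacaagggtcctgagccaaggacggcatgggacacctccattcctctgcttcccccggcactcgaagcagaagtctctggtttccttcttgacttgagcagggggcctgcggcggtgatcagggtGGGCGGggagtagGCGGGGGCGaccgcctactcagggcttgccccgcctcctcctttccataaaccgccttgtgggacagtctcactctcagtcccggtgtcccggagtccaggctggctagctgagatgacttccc
Hpgd: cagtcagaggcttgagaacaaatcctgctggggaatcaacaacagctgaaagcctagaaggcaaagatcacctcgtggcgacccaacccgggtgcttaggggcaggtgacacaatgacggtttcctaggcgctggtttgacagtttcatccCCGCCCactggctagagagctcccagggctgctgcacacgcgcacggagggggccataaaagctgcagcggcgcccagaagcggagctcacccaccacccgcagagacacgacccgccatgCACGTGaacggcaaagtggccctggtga
Ptger3: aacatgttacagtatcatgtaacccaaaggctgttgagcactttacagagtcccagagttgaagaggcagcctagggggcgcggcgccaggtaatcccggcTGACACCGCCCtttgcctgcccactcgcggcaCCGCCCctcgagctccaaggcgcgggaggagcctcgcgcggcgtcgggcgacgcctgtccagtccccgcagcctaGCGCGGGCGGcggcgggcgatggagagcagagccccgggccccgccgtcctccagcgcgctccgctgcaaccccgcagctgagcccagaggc
Ptger4: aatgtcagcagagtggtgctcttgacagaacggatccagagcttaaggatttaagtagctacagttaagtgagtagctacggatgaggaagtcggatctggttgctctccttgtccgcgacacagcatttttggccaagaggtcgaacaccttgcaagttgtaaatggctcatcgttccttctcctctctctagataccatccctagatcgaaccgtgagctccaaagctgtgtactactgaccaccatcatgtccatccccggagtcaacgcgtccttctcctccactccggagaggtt
On both strands, 10 motifs were searched: the TATA box (TATAAA), the CCAAT box (CCAAT), the GC box (GGGCGG), the Egr1 motif (GCGNGGGCG), the cyclic AMP response element (TGACGTCA), the AP-1 motif (TGANTCA), the E-box (CACGTG), the heat shock element (GAANNTTC), the antioxidant response element (TGACNNNGC) and the NF-kB motif. The GC box was found in 5 of the 7 measured members, against 33.1% of all 33469 rat promoters in the table. The Egr1 motif was in Ptges (bases -74 to -66) and Ptger3 (bases -42 to -34), and in 4.98% of all promoters. Egr1, an immediate early transcription factor, is known from mouse to act on the Ptges promoter. In Ptger3 the Egr1 match overlaps a GC box, as does the antioxidant response element match, a motif in 12.1% of promoters. Hpgd held an E-box just after its start (6.42% of promoters), and none of the 10 motifs was found in the Ptger4 window. That window lies wholly inside the span of its gene (chr2:56061699-56074594), so sequence before the gene's outer end was not searched. The Ptger1 window, not shown, also lies inside its gene (chr19:41374983-41379593). A match describes the letters only.

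The arrays came in 2 lots, per the series' description. The labels tie no array to a lot, so normal rats 1 to 3 were taken as the normal rats for ischemia, mercuric chloride 2 h and volume depletion, and normal rats 11 and 12 for mercuric chloride 8 h, cisplatin and sham. Comparisons with the same normal rats share them. Ischemia 8 h rat 3 stood apart, with 1.65% of its probes at the lower limit set for intensities and a correlation of 0.9163 with the median of the other arrays (0.9582 to 0.9889 on the others in register). Results were also computed without that array, that of normal rat 1 and 1 of the pair of volume depletion rat 1, called here the arrays that stand apart. By both measures the last 2 lay within the range of the arrays kept. Normal rat 1 had 8.72% and 0.9786, and that array of volume depletion rat 1 had 6.82% and 0.9727. For sham rat 3, values stood 2 lines away from their probes (correlation 0.0652 as deposited and 0.9843 once moved), and the moved values were used. The 7 proximal tubule markers averaged the 91.7th to 99.8th percentile of probes in normal rats. Of the thick ascending limb, Slc12a1 and Umod were at the 98.2th and 97.5th percentile and Nos1 at the 15.2th, and the 7 distal tubule and collecting duct markers ran from the 39.0th (Avpr2) to the 96.1th (Aqp2). The podocyte gene Synpo was above the lower limit in 3 of 31 rats.

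Levels are given as multiples of the median of an array's probes, and changes as log2 of the level against the mean of the normal rats of the lot. A change passed the test at an adjusted p under 0.05 (limma, Benjamini-Hochberg over all probes tested). All 9 member probes could be tested in each of the 15 comparisons. In ischemia at 8 h, 6 of the 9 probes passed against normal, 5 higher and 1 lower, from 5 genes, where 41.7% of all probes passed (20.8% higher and 20.9% lower). The median change of the member probes was 0.52, against 0.01 over all probes. In ischemia at 2 h, 3 of 9 probes passed, from 2 genes (14.7% of all probes), and with the hormone 3 of 9, from 2 genes (13.3%). Mercuric chloride gave 1 of 9 at 2 h (7.68% of all probes) and 1 of 9 at 8 h (10.9%), which is near the background. Cisplatin, sham surgery and volume depletion gave 0 of 9 each by limma, where 0.574%, 0.351% and 0.169% of all probes passed. At an unadjusted p under 0.05 these counts were 1, 0 and 0 of 9, beside 576 of 9407, 534 of 9410 and 565 of 9466 probes of the array. The RNA came from whole tissue, so fewer cells of a type and less RNA per cell cannot be told apart.

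**Figure D1:**
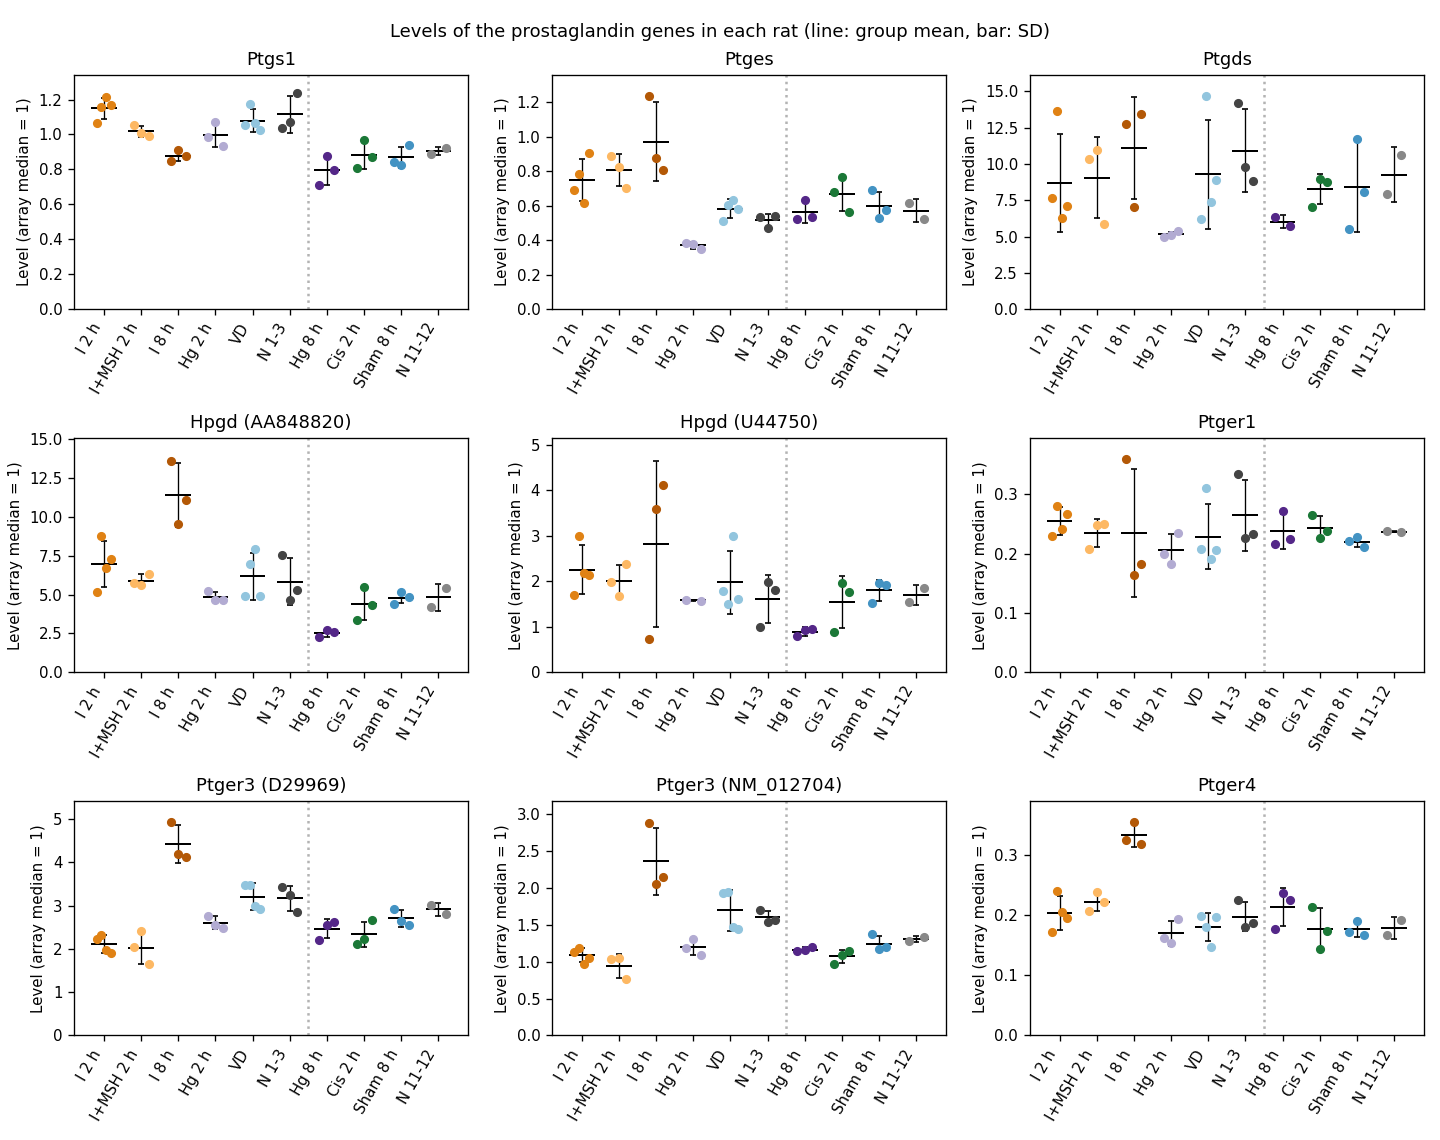
Level of each of the 9 member probes (y axis, array median = 1) in every rat, by group; points are rats, horizontal lines group means and bars the SD. The dotted line parts the groups of the lots, each with its normal rats at the right; ischemia 8 h stands highest for the first Hpgd probe, Ptger4 and both Ptger3 probes. I, ischemia; MSH, alpha melanocyte stimulating hormone; Hg, mercuric chloride; VD, volume depletion; Cis, cisplatin; N, normal.

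Ptges, the inducible prostaglandin E synthase that works with cyclooxygenase, was higher after ischemia at both times. Its levels were 0.805, 0.875 and 1.23 in ischemia at 8 h, against 0.472, 0.534 and 0.542 in normal rats 1 to 3. At 2 h they were 0.617, 0.691, 0.786 and 0.903 in ischemia alone and 0.705, 0.822 and 0.891 in ischemia with the hormone. Every rat of the 3 ischemia groups lay above all 3 normal rats. The log2 changes were 0.89 at 8 h (SE 0.16, adjusted p 6.03e-05), 0.53 at 2 h (SE 0.15, adjusted p 0.015) and 0.64 at 2 h with the hormone (SE 0.16, adjusted p 0.00704). Against sham surgery, taken as the difference of the changes from normal, ischemia at 8 h was higher by 0.83 (adjusted p 0.0122), a call lost without normal rat 11 (0.71, adjusted p 0.0798). Without the arrays that stand apart the changes were 0.73 at 8 h and 0.55 at 2 h, and both still passed. The call at 2 h was lost without ischemia 2 h rat 4 (change 0.43, adjusted p 0.0669) and without normal rat 3 (change 0.46, adjusted p 0.0721).

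After mercuric chloride no change of Ptges passed. Its levels at 2 h were 0.349, 0.375 and 0.385 in mercuric chloride rats, all below the normal rats at 0.472 to 0.542. The change of -0.48 did not pass (SE 0.16, adjusted p 0.0625). At 8 h the levels were 0.520, 0.535 and 0.635, against 0.525 and 0.617 in normal rats 11 and 12, groups that overlap (change -0.02, 95% interval -0.39 to 0.34). Ischemia stood above mercuric chloride by 1.01 at 2 h (SE 0.15, adjusted p 2.86e-05) and by 0.91 at 8 h (SE 0.24, adjusted p 0.0122), tests of the difference itself. Without normal rat 11 the difference at 8 h was 0.80 and did not pass (adjusted p 0.0834). In order of mean change the groups ran from ischemia 8 h, ischemia with the hormone and ischemia 2 h to cisplatin, volume depletion, sham, mercuric chloride 8 h and mercuric chloride 2 h. Neighbours in that order overlapped in their rats' values, except mercuric chloride 8 h and mercuric chloride 2 h.

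Ptgs1, the constitutive cyclooxygenase, was lower in ischemia at 8 h by a small amount. Its levels were 0.850, 0.878 and 0.909, against 1.04, 1.07 and 1.24 in normal rats, with no overlap. The change of -0.34 passed (SE 0.10, adjusted p 0.00549), and so did that from ischemia at 2 h (change -0.39, adjusted p 0.00121), whose rats had 1.07, 1.15, 1.17 and 1.21. The normal rats of the lots differed for this probe, by -0.30 for rats 11 and 12 minus rats 1 to 3. With all 5 normal rats as 1 group the change at 8 h was -0.22 and did not pass (adjusted p 0.0671). Against sham surgery the difference of -0.28 did not pass (adjusted p 0.169). In the 7 other treated groups no change from normal passed, and they ran from -0.19 in mercuric chloride at 8 h to 0.05 in ischemia at 2 h.

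Ptgds, the lipocalin-type synthase of prostaglandin D2, had a bright probe, at the 92.3th percentile of probes in normal rats. Its levels spread widely within groups. They were 4.98, 5.10 and 5.35 in mercuric chloride at 2 h, against 8.80, 9.80 and 14.2 in normal rats, with no overlap. The change of -1.06 was at the edge of the threshold (SE 0.33, adjusted p 0.0491). It did not pass without any 1 of the 6 rats compared, nor without the arrays that stand apart (change -0.85, adjusted p 0.126). At 8 h of mercuric chloride 2 rats were measured, with 5.71 and 6.36, against 7.94 and 10.6 in normal rats (change -0.61, adjusted p 0.437; the third rat had a missing value). In ischemia at 8 h the levels were 7.06, 12.7 and 13.4, overlapping the normal rats (change -0.01, 95% interval -0.68 to 0.67).

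**Figure D2:**
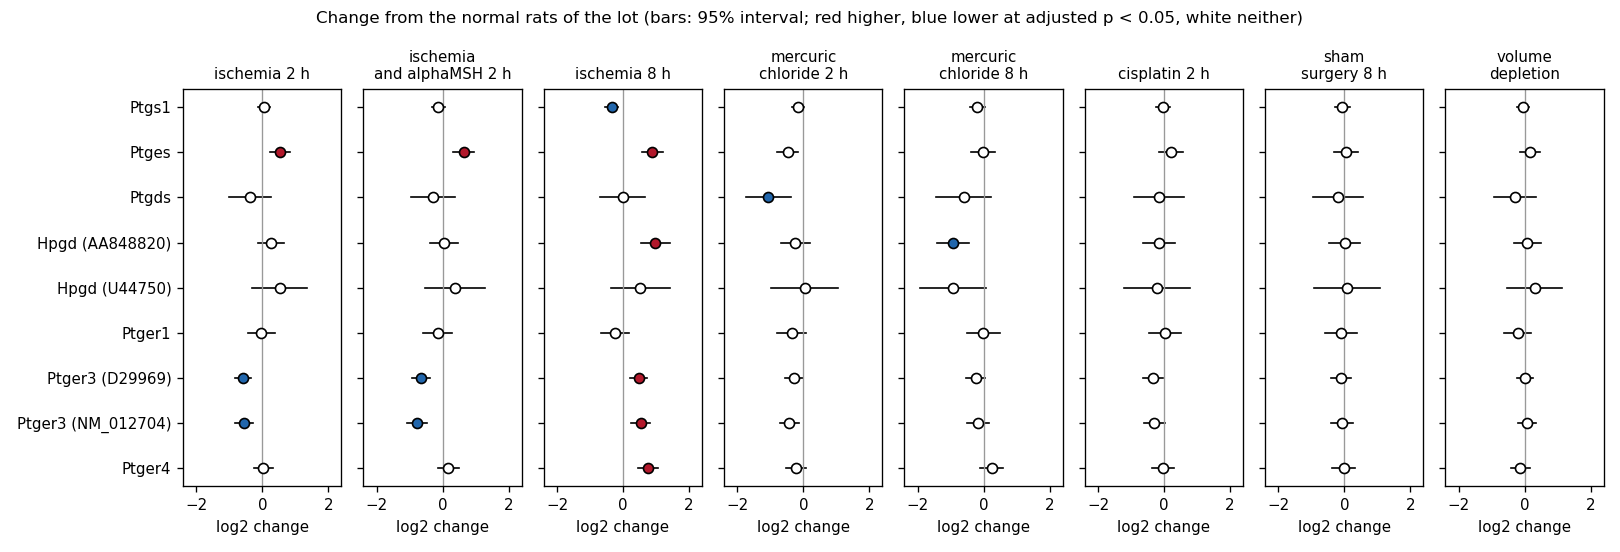
Log2 change of each member probe (rows) from the normal rats of the lot in the 8 treated groups (panels); bars are 95% intervals, and red (higher) and blue (lower) points passed at an adjusted p under 0.05. Ischemia at 8 h has 6 coloured points, and cisplatin, sham surgery and volume depletion have 0.

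Hpgd, the enzyme that starts the inactivation of prostaglandin E2, moved in opposite directions in ischemia and mercuric chloride at 8 h. On its brighter probe (AA848820) levels were 9.53, 11.1 and 13.6 in ischemia at 8 h, against 4.66, 5.29 and 7.55 in normal rats 1 to 3. In mercuric chloride at 8 h they were 2.26, 2.61 and 2.71, against 4.22 and 5.41 in normal rats 11 and 12. Neither injured group overlapped its normal rats. The changes were 0.98 in ischemia (SE 0.21, adjusted p 0.000462) and -0.93 in mercuric chloride (SE 0.23, adjusted p 0.0094). The call in mercuric chloride was lost without normal rat 12 (change -0.75, adjusted p 0.181). The difference of 1.91 between the injuries passed (95% interval 1.26 to 2.56, adjusted p 0.000185), where 11.8% of all probes passed in that comparison and 4 of the 9 member probes, from 3 genes, did. This difference passed in all 7 other settings and with each of 11 rats left out in turn, with values from 1.73 to 2.17.

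Sham surgery at 8 h left this Hpgd probe near normal, with 4.41, 4.85 and 5.16. Ischemia was higher than sham by 0.98 (adjusted p 0.0248), a call lost without normal rat 2, 3 or 12 or sham rat 3, each left out in turn (0.80 to 0.92, adjusted p 0.0548 to 0.152). Mercuric chloride was lower than sham by -0.93 within the same lot (SE 0.21, adjusted p 0.00316), where 1 of 9 member probes and 13.2% of all probes passed. At 2 h neither injury passed. Ischemia then had 5.15, 6.71, 7.31 and 8.75 (change 0.26, adjusted p 0.448), and mercuric chloride had 4.64, 4.67 and 5.21 (change -0.24, adjusted p 0.557). From 2 h to 8 h the change grew by 0.72 in ischemia (adjusted p 0.00503), while the step of -0.68 in mercuric chloride did not pass (adjusted p 0.47).

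The second Hpgd probe (U44750) correlated with the first at 0.60 over 25 treated rats. It had 3.60 and 4.13 in ischemia 8 h rats 1 and 2, but 0.725 in rat 3, the array that stands apart, against 1.00, 1.82 and 2.00 in normal rats. The change of 0.52 did not pass with all rats (adjusted p 0.357). Without the arrays that stand apart it was 1.02 (adjusted p 0.00877). In mercuric chloride at 8 h it had 0.790, 0.941 and 0.961, all below 1.55 and 1.85 in normal rats 11 and 12. That change of -0.92 did not pass with all rats (SE 0.49, adjusted p 0.278). Without the arrays that stand apart, none of which is in this comparison, the same change passed (SE 0.28, adjusted p 0.02). The fit shares 1 spread among all groups, and only the SE fell. On the 2 arrays of volume depletion rat 1 the probe differed by 0.83 on the log2 scale, the widest such gap of any member probe. Normal rat 1 had 1.00 on it, the lowest of the 5 normal rats.

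**Figure D3:**
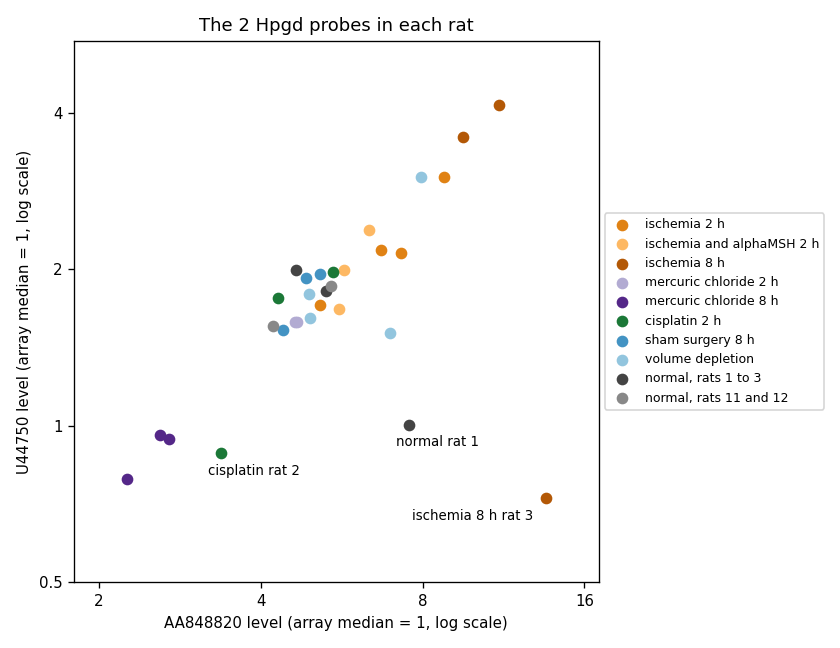
Levels of the 2 Hpgd probes in each rat, the first on the x axis and the second on the y axis (array median = 1, log scales), coloured by group. Ischemia 8 h rat 3 is the highest rat on the first probe (13.6) and the lowest on the second (0.725), and the 3 mercuric chloride 8 h rats are lowest on the first.

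Ptger3 encodes EP3, a receptor of the thick ascending limb and collecting duct that lowers cyclic AMP and opposes vasopressin. It was lower at 2 h of ischemia and higher at 8 h, on both of its probes. Probe D29969 had 1.91, 1.99, 2.24 and 2.33 in ischemia at 2 h and 1.65, 2.03 and 2.41 with the hormone. It had 4.14, 4.20 and 4.93 in ischemia at 8 h, and 2.85, 3.24 and 3.42 in normal rats 1 to 3. All 7 rats at 2 h lay below every normal rat, and all 3 at 8 h above. The changes were -0.59 at 2 h (SE 0.12, adjusted p 0.00112), -0.66 with the hormone (SE 0.13, adjusted p 0.000799) and 0.48 at 8 h (SE 0.13, adjusted p 0.00384). Probe NM_012704 gave -0.57, -0.78 and 0.54 in the same order, with adjusted p 0.00372, 0.000363 and 0.00323. The probes correlated at 0.96 over 26 treated rats, so they are not independent measures.

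Between 2 h and 8 h of ischemia Ptger3 differed by 1.06 (SE 0.12, adjusted p 1.89e-07) and 1.10 (SE 0.13, adjusted p 4.5e-07), the largest steps among the member probes. In that comparison 5 of 9 member probes, from 4 genes, and 37.7% of all probes passed. Against sham surgery ischemia at 8 h was higher by 0.59 and 0.61 (adjusted p 0.028 and 0.0375), where 5 of 9 member probes, from 4 genes, and 22.9% of all probes passed. Both calls against sham depend on single rats. The first was lost without normal rat 2, 11 or 12 or sham rat 1 or 2 (0.51 to 0.64, adjusted p 0.0531 to 0.111). The second was lost without these, normal rat 3 or ischemia 8 h rat 3 (0.46 to 0.64, adjusted p 0.0682 to 0.125), and without the arrays that stand apart (0.51, adjusted p 0.0551). In mercuric chloride no change of Ptger3 from normal passed. Its levels on probe D29969 were 2.48, 2.55 and 2.77 at 2 h and 2.21, 2.57 and 2.63 at 8 h, below their normal rats in all 6 rats. Those changes were -0.28 and -0.24 (adjusted p 0.197 and 0.354). On probe NM_012704 they were -0.43 and -0.17 (adjusted p 0.0639 and 0.651), and the change at 2 h passed under quantile normalization (-0.41, adjusted p 0.0476). At 2 h the difference between ischemia and mercuric chloride did not pass on either probe (-0.30 and -0.14, adjusted p 0.094 and 0.574). Ischemia at 8 h exceeded mercuric chloride at 8 h by 0.72 and 0.71 on the 2 probes (adjusted p 0.0145 and 0.0293). The first call was lost without normal rat 11 (0.67, adjusted p 0.0751). The second was lost without normal rat 2, 3, 11 or 12, ischemia 8 h rat 3 or mercuric chloride 8 h rat 1 or 3 (0.55 to 0.74, adjusted p 0.0533 to 0.12).

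Ptger4 encodes EP4, a receptor that raises cyclic AMP and is linked to renin release and glomerular flow. It was higher in ischemia at 8 h, with 0.318, 0.325 and 0.356, against 0.180, 0.187 and 0.226 in normal rats. The groups do not overlap, and the change of 0.76 passed (SE 0.15, adjusted p 0.000229). It was higher than at 2 h of ischemia by 0.72 (adjusted p 0.000242), whose rats had 0.172, 0.195, 0.205 and 0.240. It was higher than in sham surgery by 0.78 (adjusted p 0.0135), whose rats had 0.168, 0.172 and 0.190, a call lost without normal rat 12 (0.67, adjusted p 0.0878). Mercuric chloride at 8 h had 0.178, 0.226 and 0.237, against 0.166 and 0.192 in normal rats 11 and 12 (change 0.25, adjusted p 0.455). The difference between the injuries at 8 h was 0.51 and did not pass (95% interval 0.05 to 0.98, adjusted p 0.152). The Ptger4 probe was dim, at the 18.5th percentile in normal rats.

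Ptger1 encodes EP1, the calcium-signalling receptor of the collecting duct, and its probe was at the 23.0th percentile in normal rats. In no comparison did it pass with all rats. In ischemia at 8 h its levels were 0.163, 0.183 and 0.360, against 0.227, 0.233 and 0.334 in normal rats. The highest value of each group came from the arrays that stand apart, ischemia rat 3 and normal rat 1. Without those arrays its change was -0.41 (adjusted p 0.0351), and -0.56 from ischemia at 2 h (adjusted p 0.00192). Over 25 treated rats Ptger1 and the second Hpgd probe correlated at -0.60, a description of probes read on the same arrays. The ischemia 8 h rats lay at opposite ends of it. Rats 1 and 2 had 0.163 and 0.183 on Ptger1 and 3.60 and 4.13 on the Hpgd probe. Rat 3, whose array stands apart, had 0.360 and 0.725. The correlation without these rats is not given here.

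**Figure D4:**
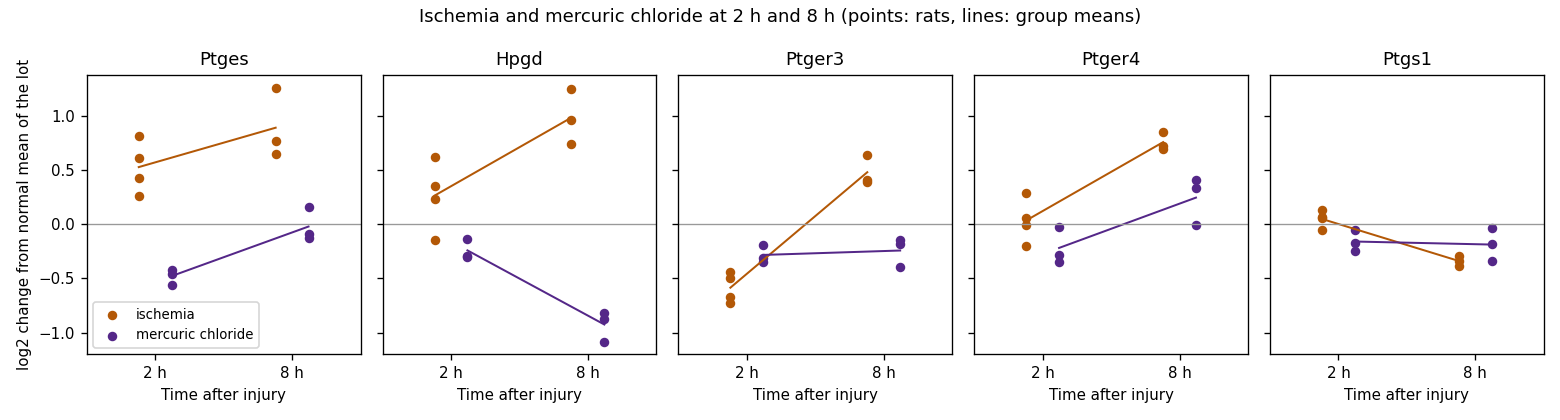
Log2 change from the mean of the normal rats of the lot (y axis) at 2 h and 8 h (x axis) in ischemia (brown) and mercuric chloride (purple) for 5 genes, on the brighter probe where a gene has 2; points are rats and lines join group means. Hpgd parts the injuries at 8 h, with means of 0.98 and -0.93, and Ptger3 crosses from below to above normal in ischemia.

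Alpha melanocyte stimulating hormone left no called change among these genes. Ischemia with the hormone was set against ischemia alone at 2 h, and 0 of 9 member probes passed by limma (0% of all probes). At an unadjusted p under 0.05 these were 0 of 9 member probes and 342 of 9458 probes. The changes ran from -0.22 for the first Hpgd probe (95% interval -0.63 to 0.18) to 0.14 for Ptger4 (95% interval -0.15 to 0.43). Between mercuric chloride at 8 h and 2 h, 0 of 9 passed by limma (0.693% of all probes). There, 1 of 9 member probes and 885 of 9385 probes had an unadjusted p under 0.05. Between ischemia and mercuric chloride at 2 h, 1 of 9 passed, Ptges (15.1% of all probes).

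No member probe passed in cisplatin at 2 h or in volume depletion. Ptger3 on probe D29969 had 2.11, 2.24 and 2.66 in cisplatin rats, against 2.81 and 3.02 in normal rats 11 and 12, with no overlap, but the change of -0.33 did not pass (adjusted p 0.7). Hpgd on its first probe had 3.38, 4.32 and 5.46 in cisplatin rats, overlapping 4.22 and 5.41 in normal rats. Volume depletion gave 2.91, 2.98, 3.47 and 3.48 for Ptger3, against 2.85, 3.24 and 3.42 in normal rats 1 to 3. Its Ptges levels were 0.510, 0.582, 0.605 and 0.636, against 0.472, 0.534 and 0.542, groups that overlap (change 0.17, 95% interval -0.13 to 0.48).

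Markers of kidney cells moved in the same comparisons. In ischemia at 8 h, 6 of 7 proximal tubule markers were lower, as were 5 of 6 of the distal tubule and collecting duct and 1 of 3 of the thick ascending limb, Slc12a1, where 20.9% of all probes were lower. Against sham surgery these counts were 6 of 7, 1 of 6 and 1 of 3, where 22.9% of all probes passed in either direction. The summed level of the thick ascending limb list was 20.0 to 40.9 in these rats, against 52.5 to 107 in normal rats, while Ptger3, itself expressed there and left out of the sum, was higher. The distal tubule and collecting duct sum was 10.5 to 24.3, against 25.2 to 29.8. Of 6 leukocyte markers 2 were higher, Cd14 and S100a9, and their list summed to 16.7 to 32.9, against 9.27 to 16.9. In mercuric chloride at 8 h, 5 of 7 proximal tubule markers were lower (sum 79.4 to 137, against 205 to 222), where 10.9% of all probes passed. The thick ascending limb sum was then 49.2 to 59.0, against 47.0 to 54.5 in normal rats 11 and 12. At 2 h of ischemia 14.7% of all probes passed. Of 6 leukocyte markers, Cd14 and S100a9 were higher and Ptprc and Csf1r lower. Among the others, 1 marker was higher of 4 of fibroblasts and smooth muscle (Tagln) and 1 of 5 of endothelium (Selp), and 1 of 6 was lower in the distal tubule and collecting duct (Avpr2). Alas2, the 1 red blood cell marker measured, was higher in ischemia at 2 h by 2.49, with the hormone by 2.27, in ischemia at 8 h by 1.92 and in mercuric chloride at 8 h by 1.77 (adjusted p 0.000221, 0.00144, 0.00176 and 0.0277). The part of these shifts in the member genes' changes was not tested.

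Other genes of the pathway were taken from a list of 48, of which 33 were on the array and 31 could be tested in most comparisons, each by its brightest probe. In ischemia at 8 h 6 of 31 were higher and 6 lower, where 20.8% of all probes were higher and 20.9% lower, so the list was called about as often as all probes. At 2 h of ischemia 2 were higher and 3 lower (14.7% of all probes passed), and with the hormone 1 of 30 was higher and 4 lower (13.3%). Anxa1, which restrains phospholipase A2, was higher in ischemia by 2.21 at 8 h, 1.88 at 2 h and 1.82 with the hormone (adjusted p 1.5e-09, 2.91e-08 and 1.88e-07). It was also higher in mercuric chloride at 8 h, by 0.71 (adjusted p 0.03). None of the 5 phospholipases A2 tested, Pla2g4a among them, passed in ischemia at 2 h or 8 h. Pla2g10 was lower in mercuric chloride at 2 h by -0.63 (adjusted p 0.0434). Ptgis, the prostacyclin synthase, was higher in ischemia at 8 h by 0.86 (adjusted p 2.03e-05). In the same rats the receptor EP2 gene Ptger2 was higher by 0.46 (adjusted p 0.00549), beside Ptger3 and Ptger4, and Ptgfrn, which binds the prostaglandin F2 alpha receptor, by 0.47 (adjusted p 0.00677). Tbxas1, the thromboxane synthase, was lower in ischemia at 2 h by -0.52 (adjusted p 0.0213), as was the thromboxane receptor gene Tbxa2r by -0.35 (adjusted p 0.0352). Against sham surgery fewer genes passed in ischemia at 8 h, 3 of 31 higher and 3 lower, where 22.9% of all probes passed. Of the 5 receptor genes tested, 1 was higher than in sham surgery, and 2 were higher than in normal rats.

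Of the 6 genes tested for transport and breakdown, 3 were lower and 0 higher in ischemia at 8 h, beside 20.9% and 20.8% of all probes. Ptgr2, which reduces 15-keto prostaglandins, the product of Hpgd, was lower by -1.30 (adjusted p 9.94e-09), while Hpgd itself was higher. The carriers Slco2b1 and Slc22a7 were lower by -1.39 and -1.10 (adjusted p 3.91e-07 and 0.00279). Against sham surgery 2 of the 6 genes were lower and 0 higher in ischemia at 8 h, where 22.9% of all probes passed. In mercuric chloride at 8 h, where Hpgd was lower, 2 of these 6 genes were higher and 1 lower, where 10.9% of all probes passed. Ptgr1, another reductase of 15-keto prostaglandins, was higher by 1.26 (adjusted p 0.0228), and Abcc4, an exporter of prostaglandin E2, by 1.27 (adjusted p 0.00443). Slc22a6, an organic anion carrier of the proximal tubule, was lower by -1.05 (adjusted p 0.0057). Over the whole list mercuric chloride gave 4 higher and 3 lower of 31 at 8 h (10.9% of all probes passed), and 0 higher and 4 lower at 2 h (7.68%). Cisplatin, sham surgery and volume depletion gave 0 of 31 by limma (0.574%, 0.351% and 0.169% of all probes). At an unadjusted p under 0.05 they gave 1, 1 and 2 of 31, beside 576 of 9407, 534 of 9410 and 565 of 9466 probes.

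**Figure D5:**
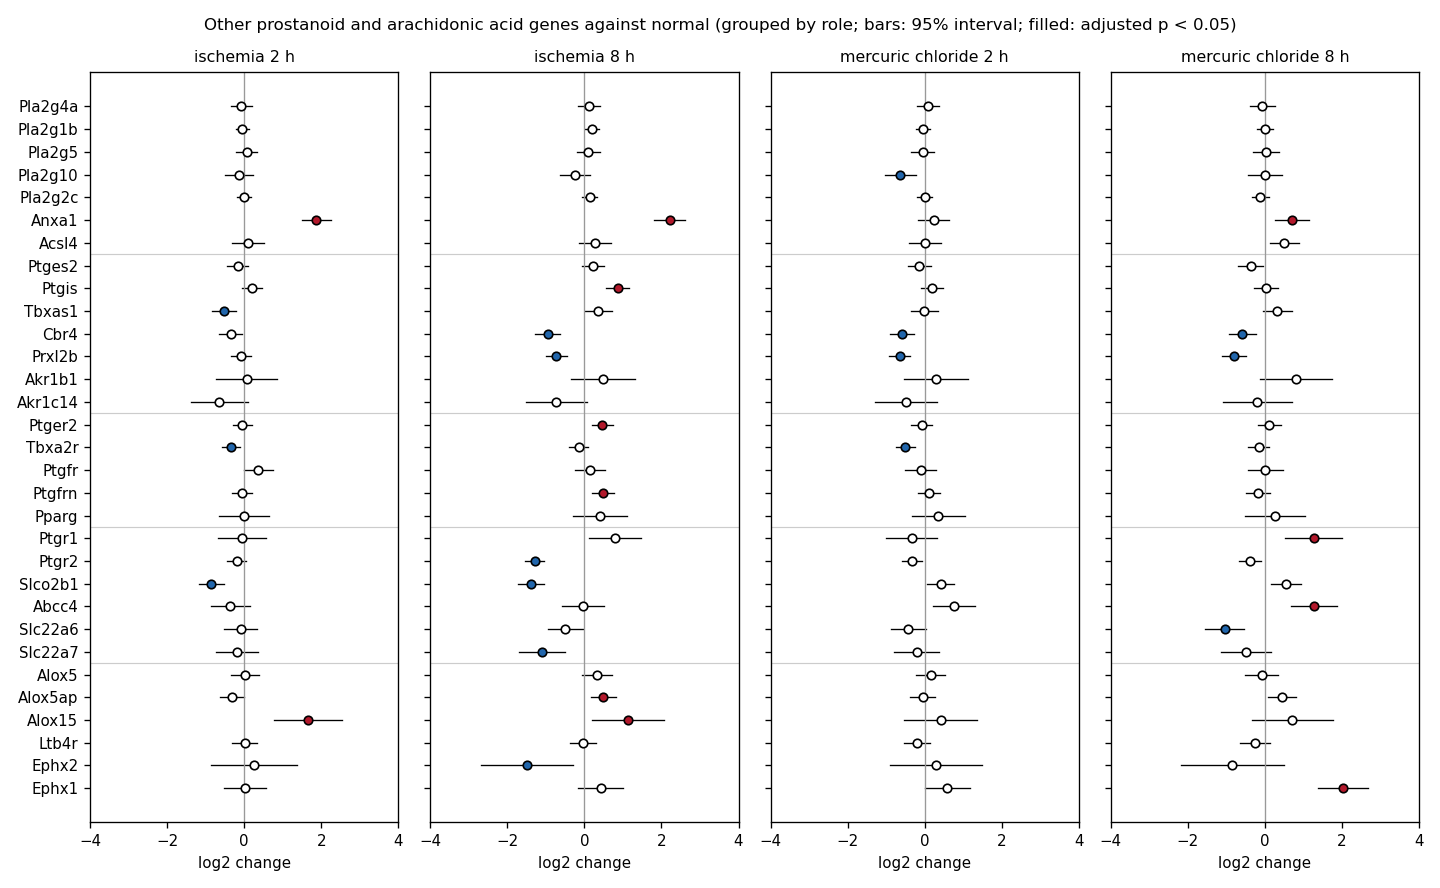
Log2 change from normal of the other pathway genes (rows, parted by role from phospholipases at the top to the leukotriene and epoxide branch at the bottom) in ischemia and mercuric chloride at 2 h and 8 h; bars are 95% intervals and filled points passed at an adjusted p under 0.05. Ischemia at 8 h has 6 genes higher and 6 lower, and mercuric chloride at 8 h 4 higher and 3 lower.

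The genes whose change from normal was most like a member's were searched among 5903 genes over the 26 treated rats. For Ptges these were Bcl10, Cxadr and Actg2 (Pearson's r 0.88, 0.87 and 0.87). For the first Hpgd probe they were Rras, Prpf38a and Rdh10 (0.84, 0.82 and 0.81). For Ptger3 they were Tspan8, Fcgr1a and Uri1 (0.88, 0.85 and 0.85), and for Ptger4 Prkaa1, Nab1 and Aacs (0.88, 0.88 and 0.87). Ptgs1 had lower values, with Pcyt2, Xrcc1 and Gjb1 at 0.76 each, as had Ptgds over 25 rats, with Icmt, Renbp and B3galt4 (0.71, 0.70 and 0.70). For Ptger1 they were Lamtor1, Fgd4 and Insrr (0.88, 0.87 and 0.85). Among members of different genes the highest was 0.67, between Ptges and the first Hpgd probe. The rats share groups and normal rats, so these values describe the groups as much as the rats.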

How the data were processed

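Kidney RNA of 31 rats in 9 groups was labelled with biotin by the CodeLink standard protocol, per the labels. The unit of the deposited values is another one than those usual for arrays: each deposited value is 2 raised to an intensity divided by about its array's median, as read from the values. The sources used here give neither scanner software nor background correction. The log2 of a deposited value was taken as the intensity (the design assumed this), and a deposited 0.5, a fill value, as missing (0.97% of values). Intensities were divided by the array median, floored at 0.1 and brought to log2, and the 2 arrays of a rat were averaged.

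One limma 3.58.1 fit (R 4.3.3) over all probes had a mean per group and lot and 21 residual degrees of freedom. Probes entered a test with 66.7% of rats measured, 3 rats above the floor and 2 measured rats in each group compared. Lots (24 and 12 arrays) are not in the labels and were assumed as an earlier description of these arrays gives them. Between groups of different lots, changes from normal were compared. Rats of a group are separate animals by their labels, and p-values measure the spread between them. The number of arrays limits the precision. Members and lists were chosen with earlier results of these data known. The genes named are the members, the listed pathway genes past the threshold against normal and the 3 genes most like each member. Code was tested on simulated data. Promoters are from RefSeq (GRCr8); 7 of 7 measured members matched.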

Additional observations from a re-analysis of the deposited data

Results flagged for a closer look

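In normal rat 1 the Ptger1 probe read 0.334, against 0.227 to 0.238 in the other 4 normal rats. The gap was 0.875 of the range, above the limit of 0.71 for 5 rats. It was the 1 such value among 27 sets checked (9 probes in the 3 groups of 4 or 5 rats), where chance marks about 1 in 20. Its array is among those left out as standing apart, though its correlation and share at the lower limit lay within the range of arrays kept. The 2 arrays of normal rat 2, averaged here, read 0.285 and 0.191 on this probe, a log2 difference of -0.58 within 1 rat. The flagged gap is thus not set apart from the spread between arrays.

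Several members changed differently between injuries or times. Between ischemia at 8 h and at 2 h the log2 difference was 0.72 for the first Hpgd probe, 1.06 and 1.10 for the Ptger3 probes, 0.72 for Ptger4 and -0.39 for Ptgs1. At 2 h, ischemia exceeded mercuric chloride by 1.01 for Ptges. At 8 h, ischemia exceeded mercuric chloride by 1.91 for the first Hpgd probe, by 0.72 and 0.71 for Ptger3 and by 0.91 for Ptges. Each was a test of the difference itself.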

How the results depend on the processing

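The 135 changes of 9 probes in 15 comparisons were computed under 8 other settings and with each rat left out. Hpgd on its second probe had no direction between ischemia at 8 h and 2 h with all rats (-0.00, SE 0.41), and was 0.80 without the arrays that stand apart, also without ischemia 8 h rat 3 alone (the range over rats left out was -0.45 to 0.80). With sham rat 3 as deposited, fewer member probes were called against normal, and fewer of all probes. The counts were 1 in ischemia 2 h (3.11% of all probes), 1 with the hormone (2.53%) and 2 in ischemia 8 h (13.6%). They were 0 in mercuric chloride 2 h (0.654%) and 0 in mercuric chloride 8 h (1.6%). Counts were 2 between ischemia 8 h and 2 h (9.9%), 1 between ischemia 8 h and sham (5.24%), and 1 between ischemia and mercuric chloride at 8 h (1.18%). For mercuric chloride 2 h the count was 0 with a floor of 0.05, no filter, the first array of each rat, the replicate block, or without the arrays that stand apart. All probes passed there at 6.83%, 7.85%, 7.32%, 6.59% and 11.2%, in that order. With no lot term, counts were 2 for mercuric chloride 2 h, 2 for mercuric chloride 8 h, 2 for cisplatin and 3 between the mercuric chloride times. The share of all probes called rose too, to 10.8%, 22.6%, 5.35% and 17.2% in that order. With the lot term these shares were 7.68%, 10.9%, 0.574% and 0.693%. The first array alone gave 3 between ischemia 8 h and sham (21.2% of all probes). Without the arrays that stand apart, counts were 2 for mercuric chloride 8 h against normal (21.5% of all probes), 2 against sham, and 3 between ischemia and mercuric chloride at 2 h. None of those arrays is in these comparisons, where the changes of the added probes stayed the same and their SE, from a spread shared by all groups, fell. With 1 rat left out, the count was 0 to 0 for mercuric chloride 2 h, 0 to 1 for mercuric chloride 8 h, 1 to 5 between ischemia 8 h and sham, 1 to 2 between ischemia and mercuric chloride at 2 h, and 1 to 4 at 8 h. Shares of all probes are not given here for the counts printed without one. Apart from sham rat 3 as deposited, where that array's values stand beside other probes, and the shared SE named above, the cause was not tested. Rat numbers did not pair the rats (median correlation 0.0188 over 109 same-numbered pairs), and the replicate block changed no other count by over 1.5 times. The rats of each group and the dimness of Ptger1 and Ptger4 limit what can be seen.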

Other observations

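The leukotriene and epoxide branch, which shares arachidonic acid with the prostaglandins, held 6 tested genes. In ischemia at 8 h against sham surgery 0 of these 6 passed, where 22.9% of all probes did. The calls of these genes in ischemia at 8 h below are against normal rats only. Alox15, the 12/15-lipoxygenase, was higher at 2 h of ischemia by 1.66 (adjusted p 0.00812) and at 8 h by 1.13 (adjusted p 0.0493). Alox5ap, which hands arachidonic acid to 5-lipoxygenase, was lower at 2 h of ischemia with the hormone by -0.52 (adjusted p 0.0284) and higher at 8 h of ischemia by 0.49 (adjusted p 0.0137). Of the epoxide hydrolases, Ephx2, the soluble form, was lower in ischemia at 8 h by -1.50 (adjusted p 0.0403), and Ephx1, the microsomal form, was higher in mercuric chloride at 8 h by 2.03 (adjusted p 8.32e-05). The difference between ischemia and mercuric chloride at 8 h passed for Ephx1 (-1.61, adjusted p 0.0134) and not for Ephx2 (-0.65, adjusted p 0.709). Prxl2b and Cbr4, enzymes of prostaglandin and carbonyl reduction, were lower in ischemia at 8 h (-0.73 and -0.96) and in mercuric chloride at 2 h (-0.65 and -0.59) and 8 h (-0.80 and -0.59).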
